A study of Mus musculus with 15 samples.

Results

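The RNAs described here are the abundant long noncoding RNAs in libraries of cells sorted as cortical interneurons from the medial ganglionic eminence (MGE). The MGE is the ventral forebrain zone that gives rise to the somatostatin and parvalbumin classes. The libraries also held RNA of genes of other cell types, as given below. Which cells each member came from was not tested. A gene was a member if its type in both expression tables was a long noncoding one and if its normalized count averaged at least 100 over the 9 libraries of the Lhx6 table. Dlx6os1 and Dlx1as were left out. This gave 183 members out of 24158 genes, and out of 2772 long noncoding RNAs, present in both tables. Members were thus chosen by their mean level over controls and mutants of the Lhx6 table together, so a member could enter through the group in which it was higher: 14 members had a control mean under 100 there, and 7 had a mutant mean under 100.

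The libraries were made from YFP-positive cells sorted from the cortex of single mouse embryos at embryonic day 14.5, 15 libraries in all. All embryos carried the transgene Nkx2-1-Cre Tg together with the reporter R26R-YFP fl/fl. Lhx6 controls (n = 4) were Lhx6+/+ and Lhx6 mutants (n = 5) were Lhx6-/- littermates. Mtg8 controls (n = 3) were Mtg8+/+, and the libraries labelled Mtg8 mutant (n = 3) came from Mtg8-/- littermates, in which the mutant allele is a LacZ knock-in. All groups were labelled through the Nkx2-1 promoter and had a mixed background, C57BL6/CBA in the labels, the sexes were not evenly spread over the samples, and both null alleles were present in every cell of the mutants rather than in the sorted cells alone. The comparisons ask which genes depend on LHX6, a LIM homeodomain transcription factor of MGE-derived interneurons, and on MTG8, a transcriptional co-regulator encoded by Runx1t1.

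Long noncoding RNAs are transcripts made by RNA polymerase II that are not translated into a known protein. Some stay in the nucleus and take part in nuclear bodies, some are made from imprinted loci and act on neighbouring genes on the same chromosome, and many serve as precursors from which microRNAs or small nucleolar RNAs are cut. In the developing forebrain many of them lie beside, or overlap, the genes of neural transcription factors, and a level of such an RNA often has to be read together with that of its neighbour.

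Before the values, the members' products and promoters are given as sequence, because several results concern microRNA hosts and a transcription factor locus. A microRNA hairpin of the RefSeq set for GRCm38.p6 lay on the same strand inside 16 of the 183 members. Together these members held 31 such hairpins, which give 50 distinct mature sequences with 43 distinct seeds, the stretch of bases 2 to 8 that pairs with targets and that is printed in capitals. Mir670hg, which was higher in Lhx6 mutants, holds in its introns on chromosome 2 the hairpins of miR-670 and of one copy of miR-129.
miR-670-5p: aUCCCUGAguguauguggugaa
miR-670-3p: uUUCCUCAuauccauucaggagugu
miR-129-5p: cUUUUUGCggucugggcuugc
miR-129-2-3p: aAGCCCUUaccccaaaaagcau
Gm3764, C130071C03Rik and Mir9-3hg, on chromosomes 3, 13 and 7, each hold a hairpin of miR-9, a microRNA of neural progenitors and young neurons, and all 3 give the same mature arms. The hairpin lies in an exon of C130071C03Rik and in an intron of the other hosts.
miR-9-5p: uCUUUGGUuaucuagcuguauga
miR-9-3p: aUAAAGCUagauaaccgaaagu
Mir100hg on chromosome 9 and Mir99ahg on chromosome 16 are hosts with a related layout, and the arms miR-100-5p and miR-99a-5p share the seed ACCCGUA. Mir100hg also holds a copy of miR-125b, and Mir99ahg a copy of let-7c.
miR-100-5p: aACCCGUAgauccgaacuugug
miR-99a-5p: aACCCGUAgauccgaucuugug
miR-125b-5p: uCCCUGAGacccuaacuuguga
let-7c-5p: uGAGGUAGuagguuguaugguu
Gm4258 on chromosome 1 holds miR-181a and miR-181b, whose 5p arms share the seed ACAUUCA, Dleu2 on chromosome 14 holds miR-16, and Rmst on chromosome 10 holds miR-135a.
miR-181a-5p: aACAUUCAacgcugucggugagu
miR-181b-5p: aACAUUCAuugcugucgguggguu
miR-16-5p: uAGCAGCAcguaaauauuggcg
miR-135a-5p: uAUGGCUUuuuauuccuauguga
The libraries measured the host transcripts and not the mature microRNAs.

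RefSeq promoter windows (GRCm38.p6, 250 bases before to 50 after the start) were found for 101 of the 183 members. Their median GC content was 56.7% against 52.7% over all 27025 windows, and they held a median of 14 CpG dinucleotides against 7. The letters TAATTA, the core read by LIM homeodomain proteins and the same on both strands, were in 2 of the 101 member windows (1.98%), those of 9630028B13Rik and Gm5165, against 5.31% of all windows. CCAAT or its reverse complement ATTGG was in 44.6% of member windows and 37.9% of all, and TATAAA or its reverse complement TTTATA in 15.8% and 14.2%. The windows of Sox1ot, of the coding gene Sox1 that lies inside it, and of Mir670hg are shown because Sox1ot and Mir670hg are the members that passed limma's test as higher in Lhx6 mutants and have a window in the RefSeq table. They lie at chr8:12385521-12385820 (plus strand), chr8:12395269-12395568 (plus strand) and chr2:94265054-94265353 (minus strand), and capitals mark CCAAT in the window of Sox1 and TATAAA in that of Mir670hg, whereas none of these letters was found in that of Sox1ot.
Sox1ot: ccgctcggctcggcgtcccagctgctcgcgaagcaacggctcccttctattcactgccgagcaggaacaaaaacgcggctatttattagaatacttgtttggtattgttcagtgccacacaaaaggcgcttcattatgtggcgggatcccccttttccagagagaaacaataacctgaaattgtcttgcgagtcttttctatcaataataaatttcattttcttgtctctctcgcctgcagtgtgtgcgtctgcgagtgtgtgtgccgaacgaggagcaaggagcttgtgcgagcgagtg
Sox1: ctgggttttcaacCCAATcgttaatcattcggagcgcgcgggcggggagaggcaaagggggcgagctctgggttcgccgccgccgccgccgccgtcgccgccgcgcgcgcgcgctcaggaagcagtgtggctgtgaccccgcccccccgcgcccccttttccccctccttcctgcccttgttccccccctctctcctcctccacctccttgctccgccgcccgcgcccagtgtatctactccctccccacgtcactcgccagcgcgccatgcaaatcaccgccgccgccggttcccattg
Mir670hg: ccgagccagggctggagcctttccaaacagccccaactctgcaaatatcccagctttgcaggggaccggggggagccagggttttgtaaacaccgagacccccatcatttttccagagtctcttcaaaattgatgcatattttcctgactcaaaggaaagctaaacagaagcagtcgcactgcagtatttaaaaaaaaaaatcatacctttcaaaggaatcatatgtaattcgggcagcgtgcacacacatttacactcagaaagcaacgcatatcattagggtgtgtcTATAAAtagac
The Sox1ot window had a GC content of 49.7% with 20 CpG dinucleotides, that of Sox1 70.7% with 37, and that of Mir670hg 44.7% with 7. The RefSeq start of Sox1ot was the start in the deposited table, whereas those of Sox1 and Mir670hg lay 224 and 185 bases away from it.

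The level of Lhx6 itself fell to 4.57% of control, from 7247 ± 1093 normalized counts (SD, n = 4) to 331 ± 99.7 (n = 5). Runx1t1 was not reduced in the libraries labelled Mtg8 mutant: it was 8891 ± 1219 (n = 3) in controls and 12845 ± 944 (n = 3) in these libraries, and every one of them was above every control, so they are named by their label. Values per gene do not show where on Runx1t1 the reads lie relative to the LacZ insertion, so this level does not check the label. In the same libraries Sst, a neuropeptide gene of these interneurons, was at 39.6% of control and Npy, another, at 47.1%, both without overlap, although neither passed limma's test (adjusted p = 0.0713 and 0.58). The paper's own DESeq2 test counted both among the genes lower in Mtg8 mutants. It also found fewer Sst and Npy cells in mutant cortex by in situ hybridization. Depth was 12218422 to 22053032 reads per library. Markers of the MGE interneuron lineage were present in all groups (11 of 13 listed genes in the tables). Their summed normalized count was 35420 to 41059 in Lhx6 controls, 10648 to 24461 in Lhx6 mutants, 54922 to 57346 in Mtg8 controls and 33315 to 36589 in libraries labelled Mtg8 mutant. In Lhx6 mutants 8 of the 11 had a log2 fold change below 0, with a median of -1.45, and 5 passed limma's test as lower, among them Sst (11499 ± 859 to 1388 ± 192) and Lhx6 itself, which weigh most in the sum, whereas the other 6 overlapped, with Ackr3 at 41.0%, Cxcr4 at 42.2%, Sox6 at 81.7%, Erbb4 at 105%, Nkx2-1 at 119% and Maf at 158% of control. The summed count of 5 blood genes ranged from 5966 to 58615 in Lhx6 controls, from 1798 to 20401 in Lhx6 mutants, from 10845 to 27162 in Mtg8 controls and from 15493 to 31665 in libraries labelled Mtg8 mutant. In the latter, 11 of 12 pyramidal lineage genes had a log2 fold change above 0, with sums of 12122 to 20781 in controls and 14535 to 28387 in these libraries. In Lhx6 mutants 5 of the 12 were above 0 and 7 below, with a median of -0.12. Their sums were 22319 to 28063 in controls and 27858 to 38606 in mutants. Bcl11b, which was called higher by limma, went from 6042 ± 1230 to 16645 ± 4764 and weighs most in the change of the sum. Among those below 0, Neurod6 was at 78.9%, Neurod1 and Neurog2 at 69.2% and Fezf2 at 68.0% of control, Fezf2 without overlap. Of the other lists of interneuron genes in the Lhx6 table, Dlx5 and Dlx6 were called higher among 8 genes common to interneurons. Npas1 and Htr3a were called lower among 7 genes of interneurons from the caudal ganglionic eminence. Of these 7, 5 had a log2 fold change below 0. Nr2f2, at 189% of control without overlap, and Sp8, at 240% with overlap, were above 0, and neither was called. In the Mtg8 comparison, 6 of the 7 were above 0 and Htr3a was below. Sp8, at 269% of control, and Calb2, at 195%, were higher there without overlap. The summed count of 11 radial glia and progenitor genes was 7903 to 9203 against 10142 to 14111, without overlap, and 11088 to 13226 against 9824 to 20045 in the Lhx6 table. None of the genes of these 3 lists was called in the Mtg8 table. The part of these cell types in the results was not tested. In bulk libraries of sorted cells, fewer cells of a kind and less RNA per cell cannot be told apart.

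The members took up 1.003 to 1.15% of the reads in Lhx6 controls and 1.13 to 1.66% in Lhx6 mutants, and 1.08 to 1.36% in Mtg8 controls against 0.980 to 1.14% in libraries labelled Mtg8 mutant. Malat1, a nuclear RNA of the splicing speckles, made up a large part of this, with 0.325 to 0.412% of reads in Lhx6 controls and 0.420 to 0.840% in mutants. The rest of the members together took 0.665 to 0.762% and 0.685 to 0.831%. The mitochondrial share was 2.24 to 2.87% in controls and 2.43 to 4.87% in mutants, and mutant 1 was highest in both the mitochondrial and the Malat1 share. The part of this difference between libraries in the change of Malat1 was not tested.

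Abundance was very uneven among the members. Their median over the Lhx6 table was 227 normalized counts, 27 members averaged 1000 or more, 43 lay between 300 and 1000, and 113 lay below 300. The cut at 100 fell in a dense range: 3222401L13Rik (102.2), A330102I10Rik (102.1) and 3110056K07Rik (101.0) lay just inside it, and B230216N24Rik (99.6), Epb41l4aos (99.0) and BB218582 (98.9) just outside. Gene models ran from 279 to 93147 bases of exon, with a median of 3431. The span of 82 members overlapped that of a protein-coding gene, 59 on the opposite strand and 23 on the same strand, and 16 more were head to head with a coding gene, with starts within 2000 bases of each other. Exons of 70 members overlapped an exon of some other gene. Whether reads were counted by strand is not given in the sources used here. For these 70 members the overlapping gene may affect the count, in a direction not known here.

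Malat1 was the most abundant member by far. Its normalized count was 56711, 48559, 62324 and 58714 in the 4 Lhx6 controls, and 138476, 87207, 68230, 101151 and 66818 in mutants 1, 2, 3, 5 and 6. Every mutant was above every control, and mutant 1 was the highest. The log2 fold change was 0.66 (SE 0.19), which did not pass limma's test (adjusted p = 0.131) and did pass DESeq2 (adjusted p = 0.0316). Malat1 in the Mtg8 table was 100299, 67607 and 53371 in controls and 61677, 54656 and 57978 in the libraries labelled mutant, and the groups overlapped.

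The next 9 members by count were 2900097C17Rik, Sfta3-ps, Meg3, Tug1, Gm15564, Gm3764, Pantr1, Gm10076 and Gm14204. In Lhx6 controls they ranged from 8377 ± 872 (SD, n = 4) normalized counts for 2900097C17Rik to 2917 ± 298 for Gm14204, and for all 9 the Lhx6 groups overlapped. Per kilobase of exon the order was different: Gm10076, a gene model of 384 bases, came to 8770 normalized counts per kilobase, next to 8102 for Malat1, 4312 for Gm15564, 3441 for Gm17750 and 1704 for 2900097C17Rik, whereas Meg3 came to 323. Sfta3-ps, which starts 7481 bases from Nkx2-1, the homeodomain gene that specifies the MGE, was 6382 ± 1062 in Lhx6 controls and 5400 ± 978 (n = 5) in mutants, and 8708 ± 3136 (n = 3) and 7734 ± 1300 (n = 3) in the Mtg8 table. Meg3, a maternally expressed imprinted RNA, was 5841 ± 2066 and 4458 ± 1019 in the Lhx6 table and 2565 ± 875 and 2910 ± 1837 in the Mtg8 table. Gm3764, a miR-9 host, had group means from 3828 ± 684 to 3968 ± 962 in the 4 groups, with libraries from 3003 to 4943, and the tables were normalized separately.

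**Figure D1:**
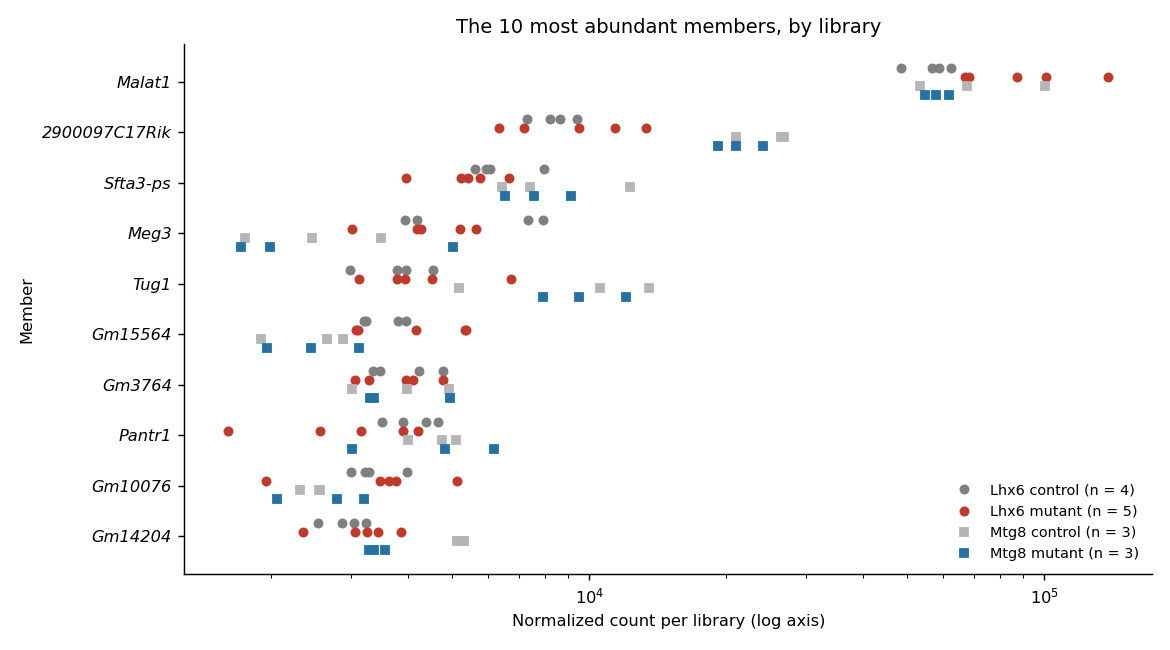
Normalized count per library (log axis) of the 10 members with the highest mean in the Lhx6 table, with 1 point per library. Malat1 lies between 48559 and 138476, well above the rest, and for Gm14204 the 3 libraries labelled Mtg8 mutant lie below the 3 Mtg8 controls.

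Gm14204 was the member of these 10 in which the Mtg8 groups stood apart. It starts 44 bases from Slc32a1, the vesicular GABA transporter gene, in a head-to-head layout. Its normalized count was 5297, 5113 and 5218 in Mtg8 controls and 3270, 3553 and 3370 in the libraries labelled mutant. The groups did not overlap and each was tight, with log2 differences of -0.67 within the libraries whose names carry a date and -0.59 within the others, and a log2 fold change of -0.62 (SE 0.16), which did not pass limma's test over all genes (adjusted p = 0.769). Slc32a1 was 577 ± 118 (n = 3) in controls and 439 ± 167 (n = 3) in these libraries, and overlapped. In the Lhx6 table Gm14204 overlapped between the groups.

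Across the Lhx6 comparison, 6 of the 183 members passed limma's test at an adjusted p under 0.05 (3.28%), against 1.71% of all 16727 genes tested. The shares over all genes, here and below, also cover genes of low level, by limma down to a mean of 10. Members averaged at least 100 over the Lhx6 table. With a minimum mean of 50, limma called 2.28% of 12567 genes and the same 6 members. Sox1ot, Gm43111, Gm43112, Mir670hg and Mir124-2hg rose (1.03% of all genes did), and Dbpht2 fell (0.682% of all genes did). Of the 5 that rose, Gm43111 and Gm43112 had a control mean under 100, so they were members only through the mutants. The median log2 fold change was 0.05 over the members and -0.04 over all genes tested, and the members' changes ran from -1.55 to 2.30. DESeq2 on the recovered reads called 19 members, 16 higher and 3 lower (10.4%, against 4.53% of its 17892 genes, of which 3.02% were higher and 1.51% lower), and these included all 6 called by limma. Without mutant 6, limma called 11 members (6.01%, against 2.93% of all genes in that fit), the 6 among them. Groups did not overlap in 14 members, 10 higher and 4 lower (7.65%, against 6.22% of all genes, 3.19% higher and 3.03% lower). Of the 10 higher, 3 had a control mean under 100, Gm43111, Gm43112 and A330102I10Rik, so that their direction was fixed by the choice of members. At an unadjusted p under 0.05 there were 36 members (19.7%, against 12.7%), 29 of them higher (7.11% of all genes). The excess of higher members has to be read with the choice of members, since the 14 with a control mean under 100 could enter only by being higher in mutants. Among the other 169 members limma called 4, 3 of them higher (1.78%), DESeq2 called 15, 12 of them higher (7.1%), 11 did not overlap, 7 of them higher (4.14%), and 30 had an unadjusted p under 0.05, 23 of them higher (13.6%). These 169, and the sets limited in this way below, are still not free of the choice of members. RNAs that fell in mutants enough to bring the overall mean under 100 remain left out.

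Sox1ot is a transcript whose span contains Sox1, the gene of a SOXB1 transcription factor of neural progenitors, on the same strand of chromosome 8. Sox1ot was 397, 265, 427 and 237 in the 4 Lhx6 controls and 1992, 1572, 1358, 1886 and 891 in mutants 1, 2, 3, 5 and 6. All mutants were above all controls, with mutant 6 the lowest of them. The mean was 331 ± 94.3 (n = 4) in controls and 1540 ± 441 (n = 5) in mutants, a log2 fold change of 2.20 (SE 0.25, adjusted p = 0.000404 by limma). Sox1 moved with it: it was 545 ± 66.0 in controls and 1856 ± 735 in mutants, a log2 fold change of 1.69 (SE 0.24, adjusted p = 0.00244 by limma). The exons of the 2 genes do not overlap in the deposited models. The ratio of Sox1ot to Sox1 had a log2 fold change of 0.51 (SE 0.27), which did not pass limma's test over all pairs of a noncoding RNA and its nearest coding gene (adjusted p = 0.56). In the Mtg8 table Sox1ot was 495, 544 and 296 in controls and 338, 182 and 559.6 in libraries labelled mutant, which overlapped.

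Gm43111 and Gm43112 are gene models of 1919 and 3122 bases that lie within Cdk14, a cyclin-dependent kinase gene of chromosome 5, on its strand and apart from its exons. Gm43111 was 64.4, 28.4, 73.7 and 44.5 in controls and 309, 317, 305, 249 and 126 in mutants 1, 2, 3, 5 and 6. Gm43112 was 97.1, 93.1, 82.0 and 51.3 in controls and 544, 203, 320.4, 390.4 and 233 in the same mutants. For both, every mutant was above every control. The log2 fold changes were 2.30 (SE 0.35, adjusted p = 0.0035 by limma) and 2.0 (SE 0.31, adjusted p = 0.00383 by limma, and 0.107 with a replicate block). Cdk14 itself rose less, from 2337 ± 362 to 4372 ± 1093, a log2 fold change of 0.88 (SE 0.19, adjusted p = 0.0317 by limma). This call was lost without control 1, 2 or 4 and without mutant 2, 3 or 5, with adjusted p-values up to 0.133, and also without the trend (0.127), with a replicate block (0.110) and with name style as a covariate. The ratios to Cdk14 had log2 fold changes of 1.42 (SE 0.31) and 1.12 (SE 0.31) and did not pass limma's test (adjusted p = 0.0892 and 0.189). Reads from unspliced Cdk14 transcripts would fall on both models, and their part in these values was not tested. Both members overlapped between the Mtg8 groups, at 31.2 to 88.5 and 8.27 to 70.2 normalized counts over the 6 libraries.

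Mir670hg, the host of miR-670-5p, miR-670-3p and miR-129 shown above, was 77.9, 127, 92.1 and 159.9 in controls and 349, 302, 269, 286 and 281 in mutants 1, 2, 3, 5 and 6. All mutants were above all controls and lay close together. The mean went from 114 ± 36.8 to 297 ± 31.1, a log2 fold change of 1.42 (SE 0.23, adjusted p = 0.00574 by limma, and 0.113 with a replicate block). Its nearest coding gene Hsd17b12, an enzyme of fatty acid elongation that lies 2672 bases away on the same strand, was 1664 ± 139 in controls and 1559 ± 321 in mutants, and overlapped. The ratio of Mir670hg to Hsd17b12 had a log2 fold change of 1.54 (SE 0.34), with an adjusted p of 0.0892 by limma. Mir670hg in the Mtg8 table was 70.4 to 111 in controls and 86.4 to 142 in libraries labelled mutant.

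Mir124-2hg, which hosts a copy of the neuronal microRNA miR-124, was the most abundant of the 6. It was 2287, 1956, 2134 and 2093 in controls, within a narrow range, and 4835, 3474, 3412, 4046 and 2657 in mutants, all of them higher. The log2 fold change was 0.77 (SE 0.16, adjusted p = 0.0259 by limma), and the call was lost without any 1 of the controls and without mutant 2 or 5, with adjusted p-values up to 0.107, and also without the trend (0.109), with a replicate block (0.217) and with name style as a covariate. Bhlhe22, its nearest coding gene at 245204 bases, was 290 ± 71.2 and 363 ± 238, and overlapped. In the Mtg8 table Mir124-2hg was 2111 ± 234 (n = 3) in controls and 1777 ± 354 (n = 3) in libraries labelled mutant.

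Dbpht2 was the member that fell. It was 264, 244, 276 and 203 in controls and 55.7, 152, 82.9, 63.9 and 149.8 in mutants 1, 2, 3, 5 and 6. The mutants were all below the controls, a log2 fold change of -1.40 (SE 0.32, adjusted p = 0.0472 by limma). The call was lost without any 1 of the controls and without mutant 1, 3 or 5, with adjusted p-values up to 0.174. It was also lost with no minimum mean (0.0622), without the trend (0.105), with edgeR (0.0673), with a replicate block (0.253) and with name style as a covariate. Its nearest coding gene Gm11042 was at a mean under 1 normalized count and was not tested. Dbpht2 was also lower in every library labelled Mtg8 mutant, with 279, 251 and 142 against 335, 315 and 363 in controls, a log2 fold change of -0.65 (SE 0.28) that did not pass limma's test (adjusted p = 0.859) and was -0.35 without mutant 4.

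The names of 4 Lhx6 mutant libraries (1, 2, 3 and 5) carry a date and those of all 4 controls and of mutant 6 do not, so that genotype and name style can be compared only through mutant 6, whose name begins with the same number as those of controls 1 and 2. What the numbers and dates mark is not given in the sources used here. In mutant 6 against the controls, the log2 difference was 1.47 for Sox1ot, 1.56 for Gm43112, 1.35 for Mir670hg, 1.33 for Gm43111, 0.33 for Mir124-2hg and -0.71 for Dbpht2. The sign was the same for all 6 members, but groups without overlap fix it, since mutant 6 then lies on the same side of every control. Each difference was smaller in size than the log2 fold change over all libraries. With the name style as a covariate, limma called 1 member, Gm19938, and none of these 6.

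**Figure D2:**
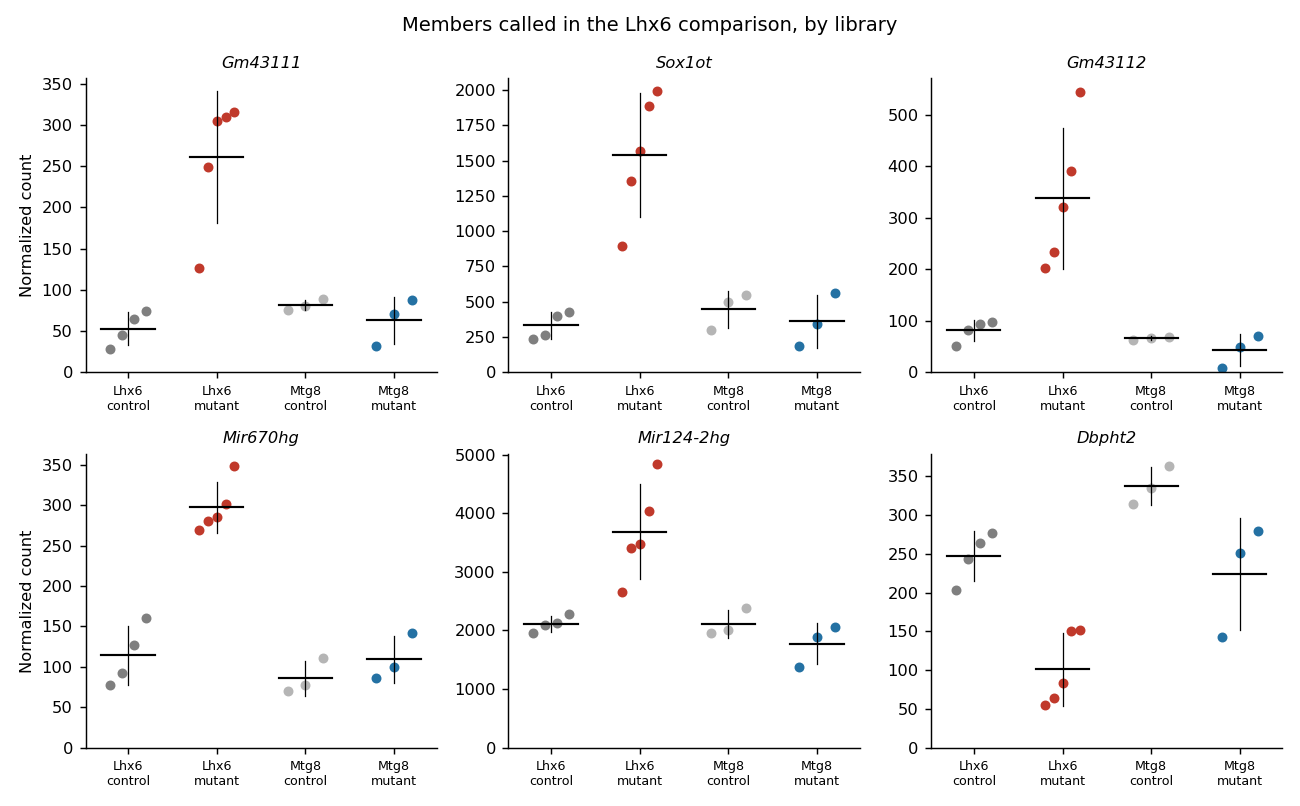
Normalized count of the 6 members called in the Lhx6 comparison, in all 15 libraries. Points are libraries, horizontal lines are group means and vertical lines are 1 SD; Lhx6 mutants lie above the Lhx6 controls for 5 members and below them for Dbpht2, whereas for the 5 that rose the Mtg8 groups overlap.

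The other members whose Lhx6 groups did not overlap were lower in 3 cases and higher in 5, and none passed limma's test. Miat, a nuclear RNA of neurons, was 793, 522, 799.6 and 470.4 in controls and 398, 299, 145, 308 and 461 in mutants, and A830011K09Rik, which lies in Lmo3 on the opposite strand, was 184, 182, 166 and 221 against 100.2, 96.3, 77.3, 122 and 134. Their log2 fold changes were -1.06 (SE 0.31) and -0.84 (SE 0.22), with adjusted p-values by limma of 0.13 and 0.0982, and DESeq2 called both (adjusted p = 0.0299 and 0.00741). Gm11266, within Nfib on the opposite strand, differed least, with a log2 fold change of -0.44 (SE 0.19, adjusted p = 0.366 by limma). A330102I10Rik, 60686 bases from Sox4 and a member only through the mutants, was 38.5 to 91.2 in controls and 97.8 to 147 in mutants, a log2 fold change of 0.94 (SE 0.29, adjusted p = 0.156 by limma). Sox4, a SOXC transcription factor of young neurons, rose by a log2 fold change of 1.02 (SE 0.16, adjusted p = 0.00513 by limma), while 2610307P16Rik, another member next to Sox4, overlapped between the groups. 4632427E13Rik, A530041M06Rik and Gm49602 completed the higher group together with Malat1, with log2 fold changes of 0.64, 0.64 and 0.87 and adjusted p-values by limma of 0.0686, 0.169 and 0.0688.

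**Figure D3:**
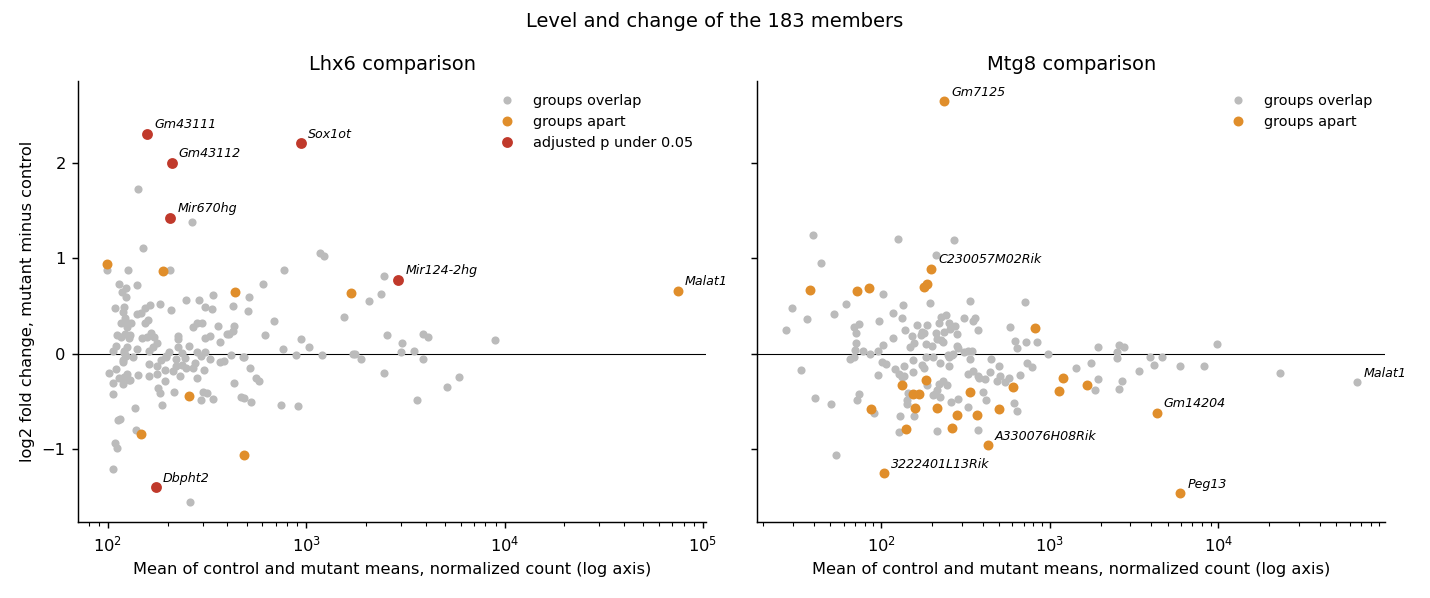
log2 fold change (mutant minus control) of each member against its mean level (log axis), for the Lhx6 comparison on the left and the Mtg8 comparison on the right. Red points passed limma's test at an adjusted p under 0.05, orange points have groups that do not overlap, and grey points have groups that overlap; 6 members are red on the left and none on the right.

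Members of 6 classes of long noncoding RNA were compared by counts, a gene being able to stand in more than 1 class. The 16 members with a RefSeq microRNA hairpin and mature sequence inside do not include Mir124-2hg. Of these 16, 1 passed limma's test in the Lhx6 comparison, Mir670hg, which rose, and none fell. Their log2 fold changes ran from -0.54 for Mir9-3hg to 1.42 for Mir670hg, with a median of -0.02. The class named as microRNA hosts held 8 members, not all of them among these 16, and 2 of the 8 rose, Mir670hg and Mir124-2hg, where 1.03% of all genes did. The 8 ran from -0.54 to 1.42 on the log2 scale with a median of 0.12, and the miR-9 hosts C130071C03Rik (2345 ± 138 in controls, 2740 ± 615 in mutants) and Mir9-3hg (864 ± 139 and 630 ± 274) overlapped between the groups. The 9 genes of microRNA processing on the list had 0 calls in limma's test in either direction, with changes from -0.48 to 0.68. Among 5 RNAs at neural transcription factor loci, Sox1ot rose. Sox2ot, whose span contains Sox2, was 1788 ± 430 in controls and 3162 ± 862 in mutants, a log2 fold change of 0.81 (SE 0.21), with an adjusted p of 0.0796 by limma and 0.0118 by DESeq2, and the groups overlapped through mutant 6 at 2175 and control 4 at 2387. Pantr1, head to head with Pou3f3, was 4109 ± 509 and 3083 ± 1044.

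In the Lhx6 comparison, 9 of 12 members named for an overlapping or opposite-strand gene had a log2 fold change above 0, and 1, Sox1ot, passed limma's test. The share above 0 was 46.6% over all genes, 55.7% over the members and 57.4% over all long noncoding RNAs tested. Kcnq1ot1, an imprinted antisense RNA, was 884, 518, 951 and 563 in controls and 2276, 2101, 985, 1977 and 706 in mutants, and mutant 6 overlapped the controls (log2 fold change 1.05, SE 0.34, adjusted p = 0.188 by limma and 0.0219 by DESeq2). Oip5os1 was 1348 ± 133 and 1765 ± 203. The 5 imprinted RNAs had 0 calls by limma, with changes from -0.35 for Meg3 to 1.05 for Kcnq1ot1, and the 30 imprinted coding genes tested also had 0. The 7 hosts of small nucleolar RNAs had 0 calls, with changes from -0.54 for Snhg5 to 0.19 for Snhg8, and Gas5 was 2928 ± 357 in controls and 3079 ± 1074 in mutants. Of 2 nuclear body RNAs, Malat1 was higher and Miat lower without overlap, as given above. The 11 listed proteins of nuclear speckles were below 0 in 10 cases, with a median of -0.25, 5 lower without overlap (3.03% of all genes were) and 0 called by limma, where 46.6% of all genes were above 0. The 10 proteins of paraspeckles ran from -0.40 to 0.32 with 0 called. In the Mtg8 table, 9 of the 12 members named for an overlapping or opposite-strand gene were below 0, with a median of -0.16. Of the 5 imprinted RNAs 4 were below 0 there, and Rian and Peg13 were lower without overlap (5.52% of all genes were). None of either class was called by limma, and 42.1% of all members were above 0 in that table.

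Nearest coding genes were taken by position and could be tested for 168 of the 183 members in the Lhx6 table. The 168 had 158 distinct neighbours, of which 4 were called by limma (2.53%, against 1.71% of all genes), or 3 of 148 (2.03%) without the members whose control mean was under 100, all higher: Sox1 for Sox1ot, Cdk14 for Gm43111 and Gm43112, Sox4 for A330102I10Rik and 2610307P16Rik, and Ubash3b for Mir100hg. With name style as a covariate none of the 4 was called. Sox1 and Sox4 were called without any 1 library, Sox4 was lost with a replicate block (adjusted p = 0.0743 by limma), and Ubash3b was lost without the trend (0.0706) and without control 1 or 2 (up to 0.0541). Over all 168 pairs the member and its neighbour changed in the same direction in 97, and Pearson's r across pairs was 0.19. For the 23 members that overlap the coding gene on the same strand, the direction was the same in 18, r was 0.66, and the members' median log2 fold change was 0.56. Of these 23, 6 had a control mean under 100 and so entered through the mutants. Without them the direction was the same in 13 of 17, r was 0.78 and the median was 0.32. For the 59 members on the opposite strand the median was 0.02, and the direction was the same in 31 of 57 tested pairs with r at -0.02. For the 16 head-to-head pairs the direction was the same in 10, with r at 0.25. These are descriptions across genes that share libraries, and unspliced RNA of a gene could add reads to a member inside it on its strand, which was not tested. In the Mtg8 table, which has other animals, 19 of the 23 same-strand pairs changed in the same direction with r at 0.49, against 97 of 167 pairs and r at 0.13 over all.

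The ratio of a member to its neighbour was tested over 954 pairs of a long noncoding RNA and a coding gene. It passed limma's test for 2 pairs (0.21% of pairs tested), of which 1 held a member, Gm47882. Gm47882 was 192, 178, 127 and 159 in controls and 23.5, 93.5, 203, 107 and 142 in mutants, which overlapped, while Gng4, a G protein subunit gene 34638 bases away, was 85.8 ± 22.7 and 294 ± 193. The ratio had a log2 fold change of -2.32 (SE 0.38, adjusted p = 0.0473 by limma). The call was lost with a pseudocount of 0.5 (adjusted p = 0.0621) and without any of the 4 controls or of mutants 2, 3 and 5, where the adjusted p reached 0.224.

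**Figure D4:**
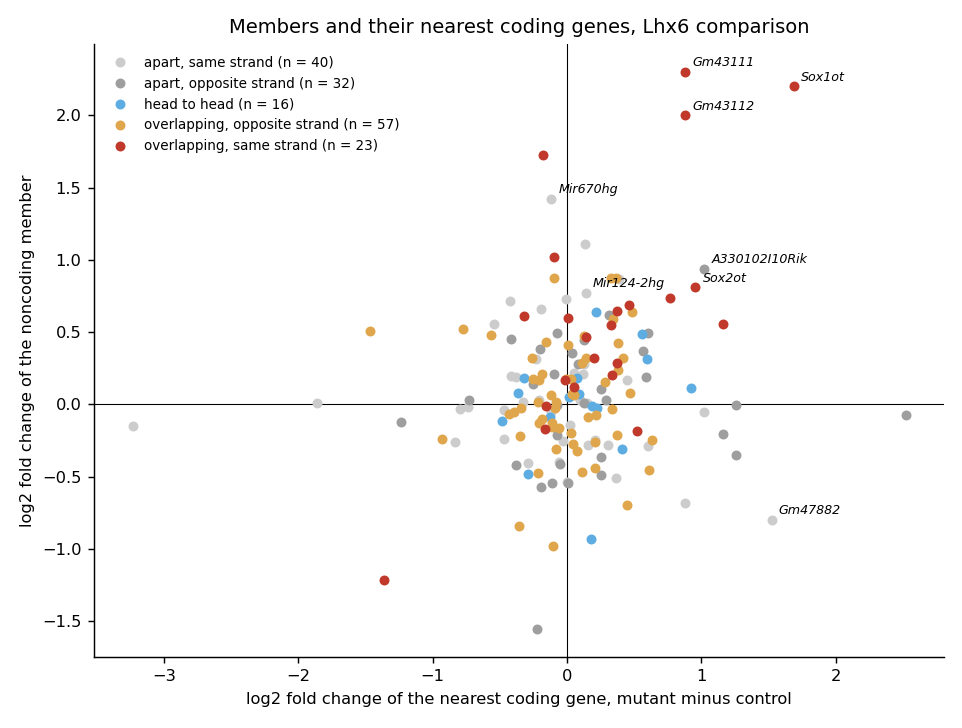
log2 fold change of each member against that of its nearest coding gene in the Lhx6 comparison, for the 168 members with a tested neighbour, coloured by arrangement. Red points, members inside or across a coding gene on the same strand, lie mostly in the quadrant where both values are above 0, with Sox1ot at the top right and Gm43111 and Gm43112 above Cdk14.

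In the Mtg8 comparison, 0 of the 183 members passed limma's test, as did 0% of all 16132 genes, and DESeq2 called 0 members, against 0.152% of its 19724 genes. At an unadjusted p under 0.05 there were 19 members (10.4%, against 5.49% of all genes), 13 lower and 6 higher (2.44% and 3.06% of all genes). The groups did not overlap in 29 members, 21 lower and 8 higher (15.8%, against 10.2% of all genes, 5.52% lower and 4.68% higher). Over all long noncoding RNAs tested in this table the share without overlap was 13.2%, with 9.7% lower and 3.54% higher. The median log2 fold change was -0.06 over the members and -0.01 over all genes tested. This table was not used to choose the members, and 31 of them had a control mean under 100 in it. The names of Mtg8 controls 1 and 2 and of mutant 2 carry a date and begin alike, whereas those of control 4 and of mutants 3 and 4 carry none. Values within the dated and the undated libraries are given for some members, where groups without overlap fix the sign in both.

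Peg13, an imprinted RNA that lies in Trappc9 on its strand, had the lowest log2 fold change among the members without overlap in the Mtg8 table. It was 6838, 6914 and 9150 in Mtg8 controls and 6488, 576 and 5566 in libraries labelled mutant 2, 3 and 4, a log2 fold change of -1.46 (SE 0.67, adjusted p = 0.859 by limma). Mutant 3 stood far below the other 2, which lay just under the controls, and without it the log2 fold change was -0.33. The log2 difference was -0.08 within the dated libraries and -2.35 within the undated ones. In the Lhx6 table Peg13 was 637, 464, 1771 and 453 in controls and 1970, 1568, 2615, 1505 and 468 in mutants, so single libraries of both genotypes differed several-fold. Trappc9 was 1725 ± 486 and 1453 ± 278 in the Mtg8 table.

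3222401L13Rik, which ends 51 bases from Pcdhga1 in the protocadherin cluster of chromosome 18, was 144, 109.8 and 186 in Mtg8 controls and 75.9, 42.3 and 65.7 in libraries labelled mutant. The log2 fold change was -1.25 (SE 0.33, adjusted p = 0.769 by limma), and Pcdhga1 was lower too, without overlap (73.0 ± 21.7 and 39.1 ± 23), with a log2 fold change of -1.09 that was -0.44 without mutant 3. 1700048O20Rik was 171, 177 and 184 against 101, 127 and 82.6 (log2 fold change -0.79, SE 0.27), and its neighbour Gask1a was 37.9 ± 11.3 and 13.2 ± 7.13, also without overlap. A330076H08Rik, which holds a copy of miR-344 at the imprinted Ndn end of chromosome 7, was 668, 504 and 450.0 against 419, 120.4 and 405 (log2 fold change -0.96, SE 0.41), whereas Ndn overlapped. E430024I08Rik was 301, 325 and 354 against 264, 118 and 221 (log2 fold change -0.77, SE 0.30). The adjusted p was 0.859 by limma for each of these 3. Mutant 3 was the lowest library for A330076H08Rik and E430024I08Rik, and without it their log2 fold changes were -0.37 and -0.43.

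Gm7125, near the RNA-binding protein gene Khdrbs3, had the highest log2 fold change, 2.64 (SE 0.61, adjusted p = 0.687 by limma). It was 39.1, 38.4 and 69.5 in controls and 352, 835 and 91.0 in libraries labelled mutant, which did not overlap although the lowest of these was close to the controls. The log2 difference was 3.15 within the dated libraries and 1.98 within the undated ones. In the Lhx6 table the same RNA was 426, 465, 357 and 475 in controls and 69.3, 859.9, 37.3, 844 and 1290 in mutants, where 2 mutants were far below and 3 far above the controls. C230057M02Rik was 107, 181 and 129 against 307, 244 and 215 (log2 fold change 0.89, SE 0.28). Gm29260, in the region of Pou3f3, was 149, 181 and 97.8 against 271, 243 and 184 (log2 fold change 0.73, SE 0.29), and Gm42659, within Capza1, was 123, 141 and 142 against 176, 308 and 195 (log2 fold change 0.70, SE 0.28). Lockd, which lies 3579 bases from the cell cycle inhibitor gene Cdkn1b, was 65.9, 61.9 and 60.6 against 89.5, 153 and 76.4 (log2 fold change 0.69, SE 0.33). For these 4 the adjusted p was 0.859 by limma, and without mutant 3 the log2 fold change was 0.45 for Gm42659 and 0.39 for Lockd, and without control 4 it was 0.48 for Gm29260. Their coding neighbours Acsf3, Pou3f3, Capza1 and Cdkn1b overlapped between the groups.

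**Figure D5:**
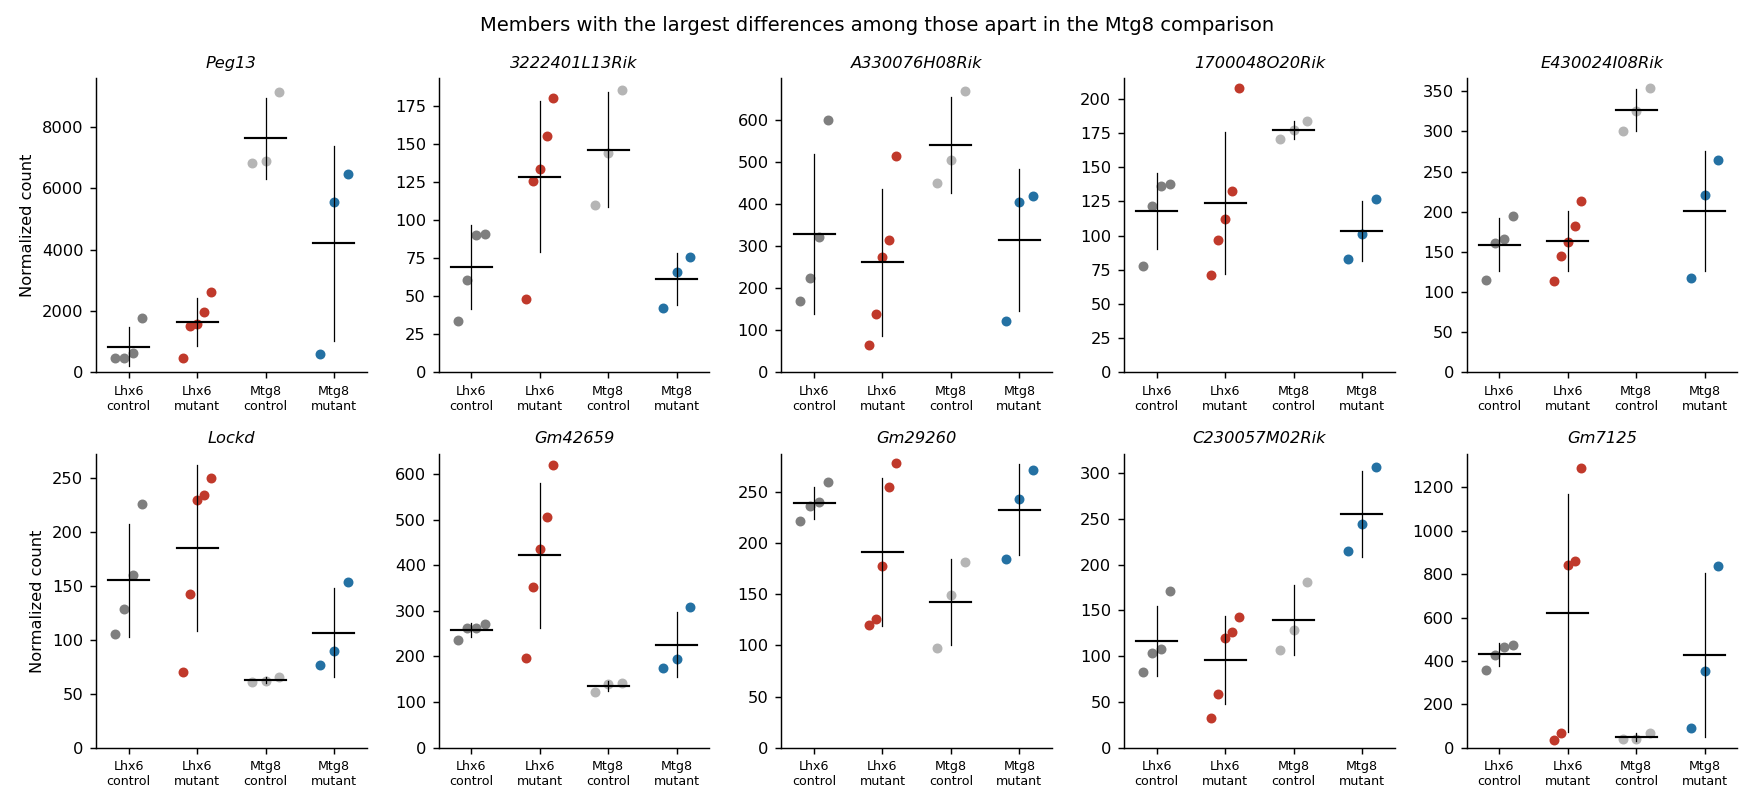
Normalized count in all 15 libraries of the 5 members with the lowest and the 5 with the highest log2 fold change among those whose Mtg8 groups do not overlap. Points are libraries, horizontal lines are group means and vertical lines are 1 SD; in the Lhx6 table the groups overlap for all 10.

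Dbpht2 and A830011K09Rik were the 2 members without overlap in both tables, 14.3% of the 14 in the Lhx6 table and 6.9% of the 29 in the Mtg8 table. The share without overlap over all members was 15.8% in the Mtg8 table and 7.65% in the Lhx6 table, so these shares were not above it. Both were lower in each table. A830011K09Rik was 312, 243 and 217 in Mtg8 controls and 177, 155 and 182 in libraries labelled mutant. Over the 183 members the log2 fold changes of the 2 tables had the same sign in 86, and Pearson's r across members was -0.23. The spread between libraries was larger in mutants than in controls for 158 members in the Lhx6 table and for 112 in the Mtg8 table. The median log2 SD over the members was 0.25 in Lhx6 controls and 0.46 in mutants, and 0.24 and 0.46 over all genes tested, so the members shared this with other genes.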

How the data were processed

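RNA of sorted YFP-positive cells was amplified with a low-input kit and sequenced as single reads. Per the submitters' processing notes and the study's methods, the authors trimmed reads with fastp 0.20.1, aligned them to GRCm38.p6 with STAR 2.7b, counted them per gene with featureCounts 1.6.4, filtered out sex-linked genes and ran DESeq2. The signal the authors deposited is the count of each gene divided by a size factor of its library, in 1 table per comparison, each normalized alone. All values (100%) were whole multiples of 1 read within 0.01, which gave back the reads. Deposited columns of log2 fold changes, their standard errors, the Wald score, p-values and adjusted p-values hold the authors' own comparison and were not used.

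The members, gene lists and tests were chosen with earlier results of these data known. The design assumed normalized values, so genes were tested with limma 3.58.1 (under R 4.3.3) on log2(normalized count + 1) with a mean-variance trend, where the mean was at least 10, as it was for all 183 members. Two-sided p-values were adjusted by Benjamini and Hochberg's method over all genes of a table, and called under 0.05. All fold changes are on this scale. Ratios to the nearest coding gene were tested in the same way. Named were members called, the 10 most abundant, the 5 lowest and 5 highest without overlap, class examples, their nearest coding genes, and, after values were seen, some of those called by DESeq2 1.42.0. Gas5 was kept out of the class named for overlapping genes, since only its spelling matches. Alternatives were pseudocounts of 0.5 and 10, no minimum or a minimum of 50, TMM factors, equal totals, no trend, library quality weights, DESeq2, edgeR 4.0.16, a replicate block, name style, each library left out, and a member mean of 50 or 200. The tests were checked on simulated counts with the same spread in controls and mutants. In these data the mutants spread more, so the check does not cover that difference. Each library is 1 embryo, so p-values measure the spread between embryos, whose number limits the precision.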

Additional observations from a re-analysis of the deposited data

Results flagged for a closer look

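Of the named members' groups in the Lhx6 table, 90 in all, 1 held a library far from the others. Peg13 was 1770.59 in Lhx6 control 3, whereas the other controls lay between 453.25 and 637.37, and the gap was 0.860 of the whole range of the group. About 1 in 20 groups is expected to meet this criterion by chance. The value of control 3 lies within the range of the Lhx6 mutants.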

How the results depend on the processing

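In the Lhx6 comparison the number of members called by limma was 6, and it was 4 to 6 with another pseudocount, minimum, scaling, without the trend, with edgeR or with a member mean of 200. It was 23 with library quality weights (12.6%, against 5.05% of all genes in that fit) and 19 with DESeq2 (10.4%, against 4.53%). With a member mean of 50 it was 11 of 344, against 1.71% of all genes in the main fit. With the name style as a covariate, a fit that rests on mutant 6, it was 1 (0.546%, against 0.341%). Leaving out 1 library gave 4 to 11. The 2 called ratios became 0 with a pseudocount of 0.5, 8 with a pseudocount of 10, 0 with a replicate block, 0 with name style as a covariate (added after seeing the data), and 0 to 5 without 1 library. In the Mtg8 comparison 0 members were called under all of these except the block.

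Same-numbered embryos are different animals, and the main test did not take the numbers as pairs. Their deviations correlated at -0.154, 0.00175 and 0.0717 in the Lhx6 table, where the other pairings ran from -0.207 to 0.184. In the Mtg8 table they correlated at 0.138 and 0.159, above all other pairings, which ran from -0.18 to 0.0778. Whether a shared number marks a litter was not tested. With a replicate block, which rests on 3 and on 2 pairs, limma called 3 members in each table (1.64%, against 0.514% of all genes for Lhx6 and 0.62% for Mtg8, where 1 residual degree of freedom is left): Sox1ot, AA465934 and Gm43111 in the first, and Gm7125, AA465934 and 6430590A07Rik in the second.

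Directions that reversed were all of values that did not pass limma's test. With name style, the log2 fold change in the Lhx6 table was -0.12 for Gm10558 (called by DESeq2) and 0.21 for Hsd17b12. With the block, it was 0.11 for Sox1ot, -0.26 for Khdrbs3 and 0.19 for Acsf3 in the Mtg8 table. With 1 library left out, it ran from -0.19 to 0.44 for Bhlhe22 and from -0.20 to 0.018 for Hsd17b12 in the Lhx6 table. In the Mtg8 table it ran from -0.79 to 0.013 for Sox1ot, from -0.15 to 0.72 for Khdrbs3 and from -0.0051 to 0.26 for Cdkn1b. The cause was not tested. The number of embryos, 3 to 5 per group, limits what these tests can show.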
